A study of Mus musculus with 16 samples.

Results

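Interferon-stimulated genes are the genes that cells switch on when an interferon binds its receptor. A list of 43 of them was followed in the ovaries of mice aged 1 year, and each gene was read by the probe whose gene name in the array files or current symbol matched it, the brightest one where there were several. Of the 43 genes, 42 had such a probe, out of 24331 features tested in all. Xaf1 had none and enters only the promoter counts below. The list was chosen with earlier results of these data known, and the probes by gene name and brightness. All 42 were well above background on all 16 arrays.

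The study asked what estrogen receptor α (ERα) and estrogen receptor β (ERβ) do in granulosa cells of aged ovaries. RNA from whole ovaries was hybridised to one-colour Agilent arrays, 4 per group. The groups were Ex3aERKO (ERα knockout), Ex3bERKO (ERβ knockout), Ex3abERKO (lacking both) and control, and all ovaries were from mice aged 1 year. The control mice carried one allele of each receptor and were therefore not wild type. The strain, the deleted part of each receptor gene, the promoter of any Cre and the number of animals behind a sample are not given in the sources used here, so every p-value below reflects the spread among these samples alone, and that spread may be technical.

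Type I interferons (interferon α and β) signal through the receptor chains Ifnar1 and Ifnar2 to a complex that includes STAT2 and IRF9. That complex binds the interferon-stimulated response element in target promoters. Interferon γ signals through Ifngr1 and Ifngr2, and many of its target promoters carry the gamma-activated site. Most tissues express these genes at a low level without infection. Immune cells, endothelium and parenchymal cells can all express them, so whole-ovary RNA does not show which cells hold the transcripts, and in such RNA fewer cells of a type and less RNA per cell cannot be told apart.

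The sequences below show the stretch just before the transcription start of 6 members, chosen because Bst2, Cmpk2 and Irf7 carry the differences described next and Isg15, Ifit3 and Rsad2 are classical targets that did not pass the test. They are from RefSeq (GRCm38.p6), cover the 200 bases before the start and are written 5′ to 3′ on the gene's strand. Capitals mark matches to the core of the interferon-stimulated response element, which is GAAA, any 2 bases and GAAA on either strand, or to the gamma-activated site, TTCNNNGAA, which reads the same on both strands. In Bst2 the matches to both motifs overlap.
Bst2 (chr8:71537473-71537672, minus strand): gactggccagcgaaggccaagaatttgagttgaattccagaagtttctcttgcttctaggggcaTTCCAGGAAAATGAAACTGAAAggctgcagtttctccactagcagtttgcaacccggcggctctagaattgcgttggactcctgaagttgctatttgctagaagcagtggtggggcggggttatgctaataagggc
Isg15 (chr4:156200819-156201018, minus strand): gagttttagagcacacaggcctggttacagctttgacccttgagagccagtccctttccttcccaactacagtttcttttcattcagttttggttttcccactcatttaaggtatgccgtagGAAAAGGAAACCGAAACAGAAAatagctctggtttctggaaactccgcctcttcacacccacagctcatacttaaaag
Ifit3 (chr19:34583329-34583528, plus strand): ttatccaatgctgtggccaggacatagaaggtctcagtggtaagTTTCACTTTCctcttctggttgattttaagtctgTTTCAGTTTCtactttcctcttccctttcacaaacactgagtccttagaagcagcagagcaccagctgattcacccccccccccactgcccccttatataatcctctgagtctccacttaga
Rsad2 (chr12:26456453-26456652, minus strand): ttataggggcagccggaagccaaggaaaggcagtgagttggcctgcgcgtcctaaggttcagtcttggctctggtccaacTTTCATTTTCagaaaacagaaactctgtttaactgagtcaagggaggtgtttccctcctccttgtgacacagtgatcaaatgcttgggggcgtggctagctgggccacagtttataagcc
Cmpk2 (chr12:26469015-26469214, plus strand): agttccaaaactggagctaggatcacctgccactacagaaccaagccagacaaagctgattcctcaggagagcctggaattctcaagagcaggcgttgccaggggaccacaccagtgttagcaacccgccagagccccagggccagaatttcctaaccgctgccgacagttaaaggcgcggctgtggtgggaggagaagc
Irf7 (chr7:141266425-141266624, minus strand): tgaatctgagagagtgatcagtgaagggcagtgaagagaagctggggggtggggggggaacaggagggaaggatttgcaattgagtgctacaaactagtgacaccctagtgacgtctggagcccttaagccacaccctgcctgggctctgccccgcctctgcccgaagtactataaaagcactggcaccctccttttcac

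Over windows of 250 bases before to 50 after the start, 32 of the 43 listed genes were in the RefSeq promoter table, Xaf1 among them. The response element core was found in 15 of these 32 (46.9%), against 3.99% of the 27025 genes in that table. The gamma-activated site was found in 10 of the 32 (31.2%), against 9.55% of all genes. Both were found in 4 members and neither in 11, among them Cmpk2, Irf7, Oasl2 and Xaf1. Bst2 had both motifs. A match describes letters in a window, and a missing match says nothing about the factor.

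Each level is the log2 ratio of a probe's signal to the 75th percentile of its array, so a difference of 1 is a doubling. That percentile ranged from 1211 to 1806, and 80.4% to 87.6% of spots per array were well above background. Esr1, which encodes ERα, averaged -2.48 ± 0.80 in Ex3aERKO, -0.51 ± 0.60 in Ex3bERKO, -1.73 ± 0.48 in Ex3abERKO and -0.10 ± 0.22 in control (SD, n = 4 each). Esr2, which encodes ERβ, averaged -0.20 ± 1.24, 0.32 ± 0.74, -2.07 ± 0.53 and -0.11 ± 0.30 in the same groups (SD, n = 4 each), so its probe was lower in Ex3abERKO and not in Ex3bERKO. Because the deleted part is not given, this probe does not check the Ex3bERKO label. Some arrays stood apart: Ex3aERKO 2 in liver transcripts (summed linear level of 6 markers 157, at most 25.0 on every other array), Ex3abERKO 2 in oviduct transcripts (60.1 summed, at most 4.84 elsewhere) and control 4 in erythroid transcripts (371 summed, with 285 the next highest). Ex3abERKO 3 had the lowest 75th percentile. Within a slide every control array was at position 1 and every Ex3aERKO array at position 2, so slide position and group cannot be told apart.

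The clearest difference was in Bst2. Bst2 encodes tetherin, a membrane protein that holds budding virus particles on the cell surface, and mouse plasmacytoid dendritic cells and plasma cells also carry it. Its level was 4.32, 4.24, 4.44 and 4.85 in Ex3aERKO replicates 1 to 4. In Ex3bERKO it was 4.51, 4.55, 4.14 and 4.10, and in Ex3abERKO 4.51, 4.03, 4.50 and 3.91. Control ovaries had 5.61, 5.13, 6.03 and 5.93, so every knockout array was below every control array.

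By limma, adjusted over all 24331 features, the Bst2 difference was -1.21 ± 0.22 in Ex3aERKO against control (2.32-fold lower, adjusted p = 0.00421). It was -1.35 ± 0.22 in Ex3bERKO against control (2.56-fold lower, adjusted p = 0.00816) and -1.44 ± 0.22 in Ex3abERKO against control (2.71-fold lower, adjusted p = 0.000526). Standard errors follow ± here and below unless SD is written. The 3 comparisons share the same 4 control arrays. Within slides, Bst2 was lower in the knockout in all 10 slide comparisons, with differences of -1.49 to -0.82 for Ex3aERKO, of -1.89 to -0.83 for Ex3bERKO and of -2.12 to -1.11 for Ex3abERKO. Without Ex3aERKO 2, Ex3abERKO 2 and control 4 the differences were -1.06, -1.27 and -1.29, and the first and second no longer passed the test (adjusted p = 0.0707 and 0.0746). Without control 3 and 4, the highest in Bst2 and chosen after seeing the data, they were -0.91 (adjusted p = 0.102), -1.05 (adjusted p = 0.225) and -1.14, and only the last passed.

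Between knockouts, the Bst2 difference was -0.23 ± 0.22 in Ex3abERKO against Ex3aERKO, -0.09 ± 0.22 in Ex3abERKO against Ex3bERKO and 0.14 ± 0.22 in Ex3aERKO against Ex3bERKO, and none passed (adjusted p = 0.633, 0.846 and 0.892). The interaction, which includes the control arrays and is the difference of Ex3abERKO from Ex3aERKO minus the difference of Ex3bERKO from control, was 1.13 ± 0.32 (adjusted p = 0.0660) and did not pass. Bst2 had 1 probe, at chr8:70001866-70001925 on the minus strand (mm7, the build of the array files). It is printed because the finding rests on it alone.
Bst2 probe: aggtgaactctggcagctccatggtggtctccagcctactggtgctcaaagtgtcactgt

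**Figure D1:**
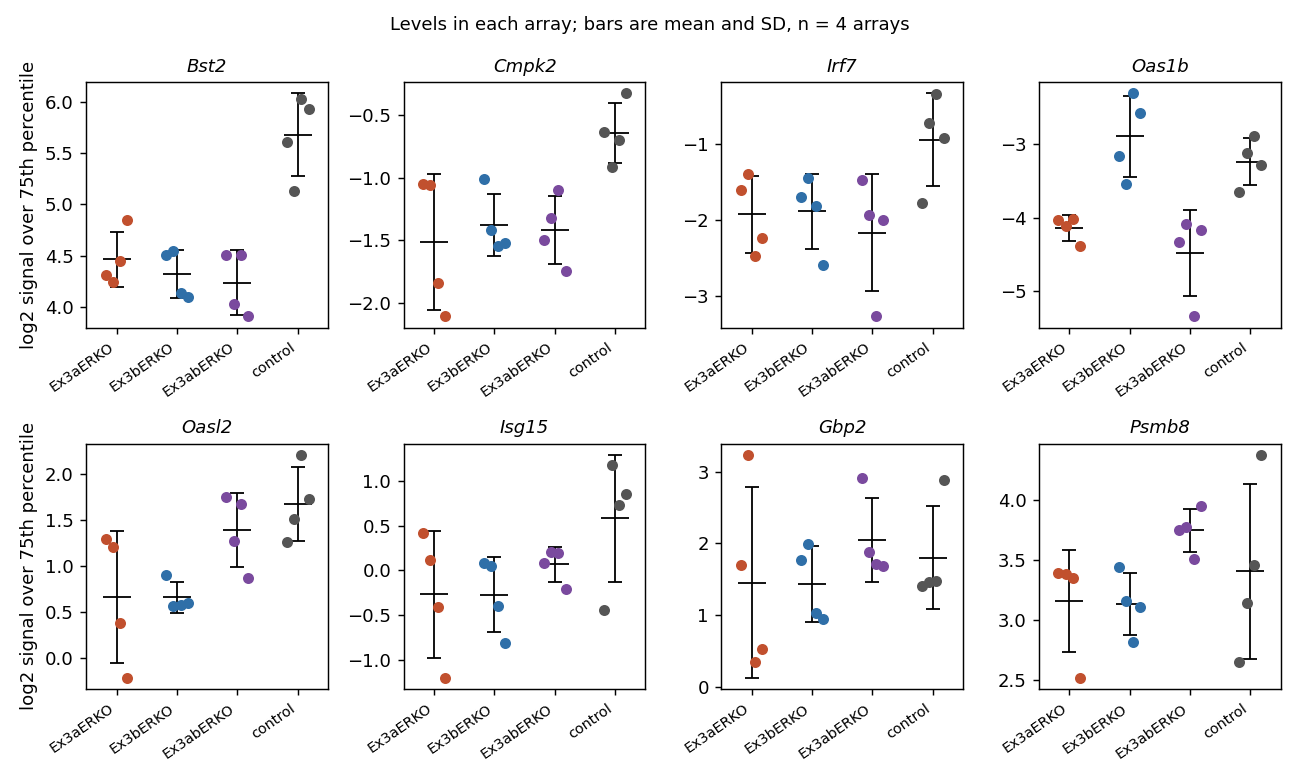
Level of 8 genes in each array (log2 signal over the array's 75th percentile), with knockout groups left of control; points are arrays, bars are the mean and SD (n = 4 arrays). Bst2 is below every control array in all 12 knockout arrays, while Isg15, Gbp2 and Psmb8 spread over a wide range within Ex3aERKO and control.

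Cells that carry Bst2 were looked at through lists that also hold markers of conventional dendritic cells and B cells. These lists therefore do not read the carrying cells alone. Of 9 plasmacytoid and conventional dendritic cell markers, 1 rose in Ex3aERKO (Siglech, 1.25 ± 0.28, adjusted p = 0.0134) and 2 rose in Ex3abERKO (Itgax and Ccr7), with none lower in any knockout. Their summed linear level lay within 12.3 to 15.9 for Ex3aERKO, 15.8 to 19.4 for Ex3bERKO, 18.6 to 24.8 for Ex3abERKO and 12.5 to 15.9 for control. Of 10 B and plasma cell markers, 5 rose in Ex3abERKO, among them Ms4a1 and Jchain, and Sdc1 fell in Ex3aERKO and Ex3abERKO. Theca and luteal cells are the steroid-making cells around and after the follicle. Of 6 of their markers 2, 1 and 4 fell in Ex3aERKO, Ex3bERKO and Ex3abERKO, and 1 rose in each single knockout. Their summed level lay within 153 to 223 for Ex3aERKO, 170 to 273 for Ex3bERKO, 54.6 to 141 for Ex3abERKO and 294 to 430 for control. Of 13 endothelial markers 8, 0 and 6 fell and 1 rose in Ex3abERKO, with summed levels of 26.5 to 32.5, 33.6 to 51.5, 33.3 to 42.9 and 41.8 to 60.2 in the same 4 groups. Of 7 oocyte markers 6, 0 and 5 fell, and of 8 granulosa cell markers 1, 0 and 4 fell and 2, 0 and 1 rose. Over all features 4.2%, 0.67% and 11.7% were called lower and 3.87%, 0.403% and 10.7% higher against control. Whether any of these cells have a part in the Bst2 difference was not tested.

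Few of the 42 genes were called against control. In Ex3aERKO, 2 of 42 were lower (Bst2 and Cmpk2) and none was higher by limma, while 8.07% of all features were called, 4.2% lower and 3.87% higher. In Ex3bERKO, 1 was lower (Bst2) and none higher, against 0.67% and 0.403% of all features (1.07% in all). In Ex3abERKO, 4 were lower (Bst2, Oas1b, Cmpk2 and Irf7) and none higher, against 11.7% and 10.7% (22.4% in all), so the lower count is of the order of the background. At an unadjusted p under 0.05, 13, 10 and 9 members were lower (31.0%, 23.8% and 21.4%), against 11.7%, 4.90% and 19.2% of all features, so the share in Ex3abERKO was near the background. None was higher in any of the 3, against 9.35%, 4.92% and 14.8% of all features.

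Most of the differences pointed down without passing the test. The median difference over the 42 genes was -0.43 in Ex3aERKO, -0.45 in Ex3bERKO and -0.31 in Ex3abERKO against control, and over all features it was -0.08, 0.01 and -0.10. The difference was negative for 41, 41 and 31 of the 42 genes, and for 59.3%, 48.6% and 58.4% of all features. Another list, of 45 further interferon-stimulated genes, had medians of -0.11, -0.16 and 0.35, with 25, 29 and 14 of 45 negative. That list thus leaned down less in the single knockouts and pointed up in Ex3abERKO. The lean of the 42 genes shrank without control 3 and control 4, the controls highest in them and chosen after seeing the data. Removing the highest controls must shrink it, so that fit is no test of the lean. The medians were then -0.02, -0.14 and 0.09, with 22, 28 and 17 of 42 negative. Without these controls, Psmb9 and Lgals3bp were also called higher in Ex3abERKO. Leaving out any 1 array kept every median negative (-0.56 to -0.23, -0.64 to -0.31 and -0.48 to -0.15).

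**Figure D2:**
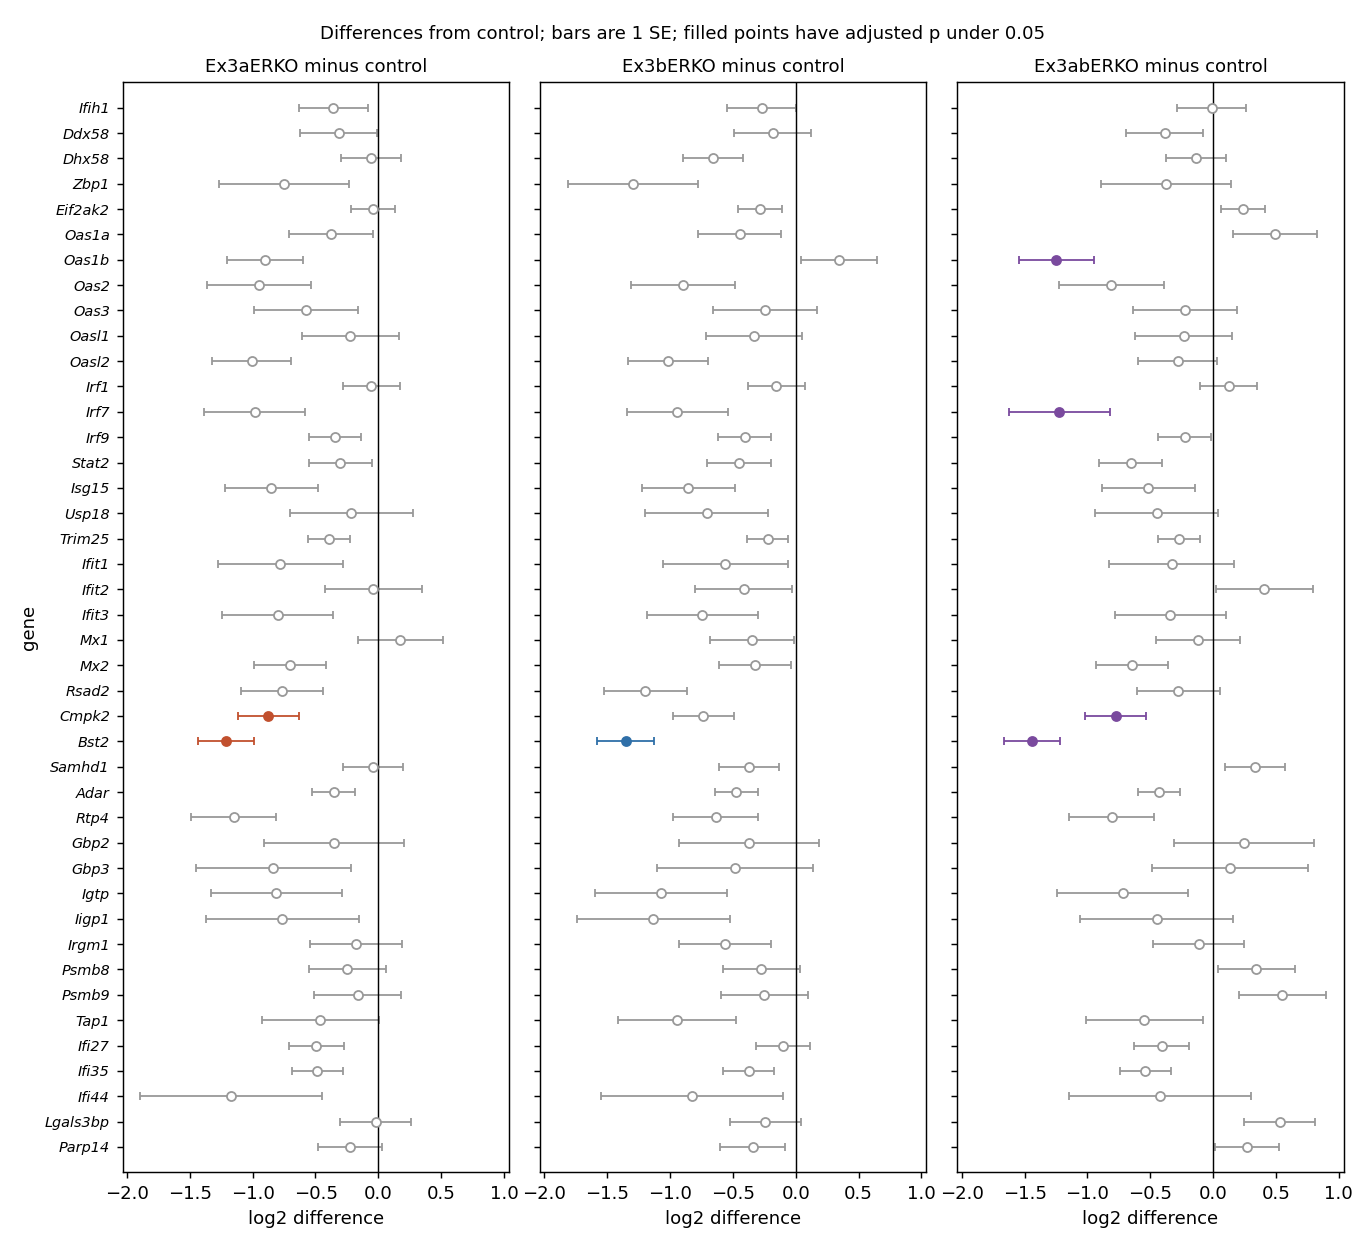
Log2 difference from control for the 42 genes (horizontal axis; bars are 1 SE from the model over 16 arrays), for Ex3aERKO, Ex3bERKO and Ex3abERKO; filled points passed at an adjusted p under 0.05. Bst2 is filled in all 3 panels, Cmpk2 in the outer 2, and Oas1b and Irf7 in the Ex3abERKO panel.

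Among the sensors of viral RNA, which detect foreign RNA or make the second messenger that activates RNase L, only Oas1b of 11 was called against control. Oas1b belongs to the 2′-5′ oligoadenylate synthetase family, a cluster of close paralogs, and in many laboratory mouse strains it carries a premature stop. Its level was -4.03, -4.11, -4.02 and -4.39 in Ex3aERKO, -3.15, -3.53, -2.31 and -2.57 in Ex3bERKO, with -4.33, -4.09, -5.34 and -4.17 in Ex3abERKO. Control ovaries had -3.65, -3.12, -2.88 and -3.28. The Ex3aERKO and Ex3abERKO arrays were all below every array of Ex3bERKO and of control.

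The Oas1b difference was -1.25 ± 0.30 in Ex3abERKO against control (adjusted p = 0.00856) and -0.90 ± 0.30 in Ex3aERKO against control, where it did not pass (adjusted p = 0.0848). In Ex3bERKO it was 0.34 ± 0.30 (adjusted p = 0.843). Between knockouts it was -1.59 ± 0.30 in Ex3abERKO against Ex3bERKO (adjusted p = 0.00315) and -1.24 ± 0.30 in Ex3aERKO against Ex3bERKO (adjusted p = 0.0438). It was negative within each of the 7 slide comparisons of Ex3aERKO or Ex3abERKO with control and positive within the 3 of Ex3bERKO. The call in Ex3abERKO against control was lost without control 3 and 4 (adjusted p = 0.0901). Whether the probe also reads a paralog was not tested.
Oas1b probe (chr5:120055330-120055389, plus strand, mm7): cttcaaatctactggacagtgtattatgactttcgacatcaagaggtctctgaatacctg

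No other oligoadenylate synthetase gene was called against control. Oas1a, its neighbour and the active enzyme of the pair, averaged -0.31 ± 0.44 in Ex3aERKO, -0.38 ± 0.56 in Ex3bERKO, 0.56 ± 0.21 in Ex3abERKO and 0.07 ± 0.65 in control (SD, n = 4 each), and no comparison of it was called. Oas2 differed from control by -0.95 ± 0.42 in Ex3aERKO, -0.90 ± 0.42 in Ex3bERKO and -0.81 ± 0.42 in Ex3abERKO, of similar size to Oas1b in Ex3aERKO, and was not called in any comparison (adjusted p = 0.199, 0.499 and 0.188). Oas3 and Oasl1 were not called either. Oasl2, a relative of human OASL, was 1.30, 1.20, 0.38 and -0.21 in Ex3aERKO, 0.90, 0.56, 0.58 and 0.60 in Ex3bERKO, with 1.75, 1.27, 1.68 and 0.88 in Ex3abERKO. In control it was 1.26, 1.52, 2.21 and 1.72, so all Ex3bERKO arrays were below all control arrays and the other groups overlapped.

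Oasl2 was the only member called in the interaction (1.74 ± 0.44, adjusted p = 0.0447, with 3.61% of all features called, 1.83% higher and 1.78% lower). Its difference from control was -1.01 ± 0.31 in Ex3aERKO (adjusted p = 0.0653), -1.02 ± 0.31 in Ex3bERKO (adjusted p = 0.188) and -0.28 ± 0.31 in Ex3abERKO. The Oasl2 call was lost in 21 of 30 alternatives and held in 3 of 16 fits that left out 1 array. The interaction estimate was positive for 41 of the 42 members, with a median of 0.81 against 0.00 over all features, and 10 (23.8%) were positive and none negative at an unadjusted p under 0.05, against 8.17% and 8.11% of all features. It contains the same control arrays. Without control 3 and 4, again chosen after seeing the data, its median was 0.37 and no member was called. Leaving out any 1 array gave interaction medians of 0.59 to 0.97.

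Ifih1, the first of the sensors listed, encodes MDA5, which binds long double-stranded RNA. It was 0.51, 0.68, 0.49 and -0.19 in Ex3aERKO, 0.61, 0.52, 0.42 and 0.29 in Ex3bERKO, 0.62, 0.43, 1.49 and 0.34 in Ex3abERKO, and 0.26, 0.45, 0.99 and 1.21 in control. The groups overlapped and no comparison of it was called. Ddx58 (RIG-I), Dhx58 (LGP2), Zbp1, a sensor of Z-form nucleic acid, and Eif2ak2 (protein kinase R) were not called either, with differences from control between -1.29 (Zbp1 in Ex3bERKO) and 0.24 (Eif2ak2 in Ex3abERKO). Ddx58 had 3 dimmer probes, and in the limma fit over all 36226 kept probes 1 of them was lower in Ex3abERKO against control (-0.98 ± 0.19, adjusted p = 0.00265), against Ex3aERKO (-0.73 ± 0.19, adjusted p = 0.0331) and against Ex3bERKO (-0.81 ± 0.19, adjusted p = 0.0121). The other 2 were not called. Of 17 members with several kept probes, all probes had the same sign in 12, 16 and 12 for Ex3aERKO, Ex3bERKO and Ex3abERKO against control.

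Of the 4 transcription factors, Irf7 was called. IRF7 drives the transcription of type I interferon genes and is itself induced by them. Its level was -1.61, -1.39, -2.47 and -2.23 in Ex3aERKO, -1.69, -1.44, -1.82 and -2.59 in Ex3bERKO, with -1.47, -1.93, -3.26 and -2.0 in Ex3abERKO. Control ovaries had -1.78, -0.73, -0.35 and -0.92, so control 1 lay among the knockout arrays and the other 3 control arrays were above them all.

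The Irf7 difference was -1.22 ± 0.40 in Ex3abERKO against control (2.33-fold lower, adjusted p = 0.0405). It was of similar size and not called in Ex3aERKO (-0.98 ± 0.40, adjusted p = 0.164) and Ex3bERKO (-0.94 ± 0.40, adjusted p = 0.431). Without Ex3abERKO 3, which had the lowest level, it was -0.86 (adjusted p = 0.101), and without control 3 it was -1.02 (adjusted p = 0.124). It passed in 8 of 16 fits that left out 1 array, and it did not pass with slide as a fixed block (-1.26, adjusted p = 0.0642) or with the replicate block (adjusted p = 0.0506). Its probe covers chr7:137682028-137682378 on the minus strand (mm7), a span longer than its 60 bases.
Irf7 probe: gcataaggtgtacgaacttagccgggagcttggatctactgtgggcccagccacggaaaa

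Irf1, a factor induced mainly by interferon γ, was 3.69, 4.41, 3.65 and 3.19 in Ex3aERKO, 3.83, 3.55, 3.51 and 3.66 in Ex3bERKO, 3.87, 3.87, 4.02 and 3.90 in Ex3abERKO, and 3.43, 3.76, 3.71 and 4.26 in control. No comparison of Irf1, Irf9 or Stat2 was called. Stat2 was lowest in Ex3abERKO against control (-0.66 ± 0.25, adjusted p = 0.0760).

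None of the ubiquitin-like modifier and its enzymes passed against control. Isg15, the modifier itself, was 0.41, 0.11, -0.41 and -1.20 in Ex3aERKO, 0.08, 0.04, -0.40 and -0.82 in Ex3bERKO, with 0.08, 0.20, 0.19 and -0.21 in Ex3abERKO. In control it was -0.44, 1.18, 0.74 and 0.86. Again control 1 lay within the range of the knockouts and the other 3 control arrays above it. Its differences were -0.85 ± 0.37 in Ex3aERKO (adjusted p = 0.193), -0.85 ± 0.37 in Ex3bERKO (adjusted p = 0.444) and -0.52 ± 0.37 in Ex3abERKO. The array files place the Isg15 probe on chromosome 17 and RefSeq places the gene on chromosome 4, the only one of 42 members whose chromosomes differ. Usp18, which removes ISG15 from proteins, had differences from -0.71 to -0.22, and Trim25, a ubiquitin ligase that activates RIG-I, from -0.39 to -0.22. A second, dimmer Trim25 probe disagreed: in the limma fit over all 36226 kept probes it was higher in Ex3abERKO against control (0.65 ± 0.17, adjusted p = 0.0121), against Ex3aERKO (0.61 ± 0.17, adjusted p = 0.0401) and against Ex3bERKO (0.84 ± 0.17, adjusted p = 0.00443).

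Among the 11 antiviral effectors, Cmpk2 was called beside Bst2. Cmpk2 encodes a mitochondrial nucleotide kinase and lies on chromosome 12 next to Rsad2, which encodes viperin. Its level was -1.05, -1.06, -1.84 and -2.11 in Ex3aERKO, -1.01, -1.42, -1.55 and -1.52 in Ex3bERKO, with -1.49, -1.32, -1.10 and -1.75 in Ex3abERKO. Control ovaries had -0.63, -0.91, -0.70 and -0.32. Every knockout array was below every control array.

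The Cmpk2 difference was -0.87 ± 0.25 in Ex3aERKO (adjusted p = 0.0417) and -0.78 ± 0.25 in Ex3abERKO (adjusted p = 0.0347) against control, and -0.73 ± 0.25 in Ex3bERKO, where it did not pass (adjusted p = 0.243). These calls were near the threshold: leaving out single arrays gave adjusted p from 0.0283 to 0.133 in Ex3aERKO and from 0.0187 to 0.0952 in Ex3abERKO. A second, dimmer Cmpk2 probe had differences of -0.82, -0.55 and -0.90 (± 0.54 each) in Ex3aERKO, Ex3bERKO and Ex3abERKO. None was called in the limma fit over all 36226 kept probes (adjusted p = 0.467, 0.879 and 0.266). With the mean over all kept probes of a gene, Cmpk2 was not called in Ex3aERKO or Ex3abERKO against control.

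Rsad2 differed by -0.77 ± 0.33, -1.20 ± 0.33 and -0.28 ± 0.33 in Ex3aERKO, Ex3bERKO and Ex3abERKO, and none was called (adjusted p = 0.118 for Ex3bERKO). Rtp4, a chaperone of G protein-coupled receptors with antiviral activity, was close to the threshold in Ex3aERKO (-1.15 ± 0.34, adjusted p = 0.0505). Ifit1, whose product binds viral RNA lacking a methylated cap, was -0.57, -0.98, -2.09 and -2.71 in Ex3aERKO, -0.89, -1.09, -1.55 and -1.94 in Ex3bERKO, with -1.22, -1.28, -0.37 and -1.67 in Ex3abERKO. In control it was -2.11, -0.61, -0.08 and -0.42, so the 4 groups overlapped and the control array 1 was among the lowest values. Ifit2, Ifit3, Mx1, Mx2, Samhd1 and Adar were not called in any comparison, with differences from control between -0.80 (Ifit3 in Ex3aERKO) and 0.41 (Ifit2 in Ex3abERKO).

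The GTPases induced mainly by interferon γ, which attack the vacuoles of intracellular parasites and bacteria, spread widely between arrays in Ex3aERKO and control and less in Ex3bERKO and Ex3abERKO. Gbp2 was 1.70, 3.24, 0.35 and 0.53 in Ex3aERKO, 1.77, 1.99, 1.03 and 0.94 in Ex3bERKO, 2.92, 1.87, 1.71 and 1.69 in Ex3abERKO, and 1.40, 1.46, 1.48 and 2.88 in control. It was highest in Ex3aERKO 2, Ex3abERKO 1 and control 4. Iigp1 was 3.85 in Ex3aERKO 2 and 4.35 in control 4, and at most 3.30 on every other array, with a range of 1.5 to 1.79 in Ex3bERKO. None of Gbp2, Gbp3, Igtp, Iigp1 and Irgm1 was called in any comparison. Igtp lacked control 2, where its spot was marked an outlier, so its control mean rests on 3 arrays.

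The same arrays, Ex3aERKO 2 and control 4, were those with high liver or erythroid transcripts, and whether that has a part in the GTPase levels was not tested. Ifng, which encodes interferon γ, was -3.16, -1.35, -4.02 and -3.78 in Ex3aERKO, -4.03, -3.87, -3.96 and -4.55 in Ex3bERKO, -2.92, -2.60, -3.02 and -1.82 in Ex3abERKO, and -4.56, -3.58, -2.37 and -2.68 in control. It was thus higher in Ex3aERKO 2 than in the other Ex3aERKO arrays and higher in control 3 and 4 than in control 1 and 2. No comparison of Ifng with control was called.

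Psmb8, Psmb9 and Tap1, the immunoproteasome subunits and the peptide transporter that feed MHC class I, were not called. Psmb8 was 3.39, 3.38, 3.35 and 2.52 in Ex3aERKO, 3.44, 3.16, 2.81 and 3.11 in Ex3bERKO, 3.75, 3.77, 3.51 and 3.96 in Ex3abERKO, and 2.65, 3.14, 3.46 and 4.38 in control. The Ex3abERKO arrays were above all Ex3aERKO and Ex3bERKO arrays and inside the control range. Psmb9 differed by 0.80 ± 0.35 in Ex3abERKO against Ex3bERKO (adjusted p = 0.133) and by 0.55 in Ex3abERKO against control.

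Of the other induced genes, Ifi27, which encodes a mitochondrial and nuclear-envelope protein, was 5.22, 4.90, 4.87 and 4.70 in Ex3aERKO, 5.48, 5.33, 5.18 and 5.27 in Ex3bERKO, with 5.22, 4.71, 5.40 and 4.69 in Ex3abERKO. In control it was 5.10, 5.02, 5.85 and 5.70. The groups overlapped and the differences of -0.49 ± 0.22, -0.10 and -0.41 did not pass. Ifi44 ranged most within a group, from -3.18 in control 1 to 0.89 in control 4. Ifi35, Lgals3bp and Parp14 were not called, with Ifi35 at -0.48, -0.38 and -0.54 against control and Lgals3bp at 0.53 in Ex3abERKO.

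**Figure D3:**
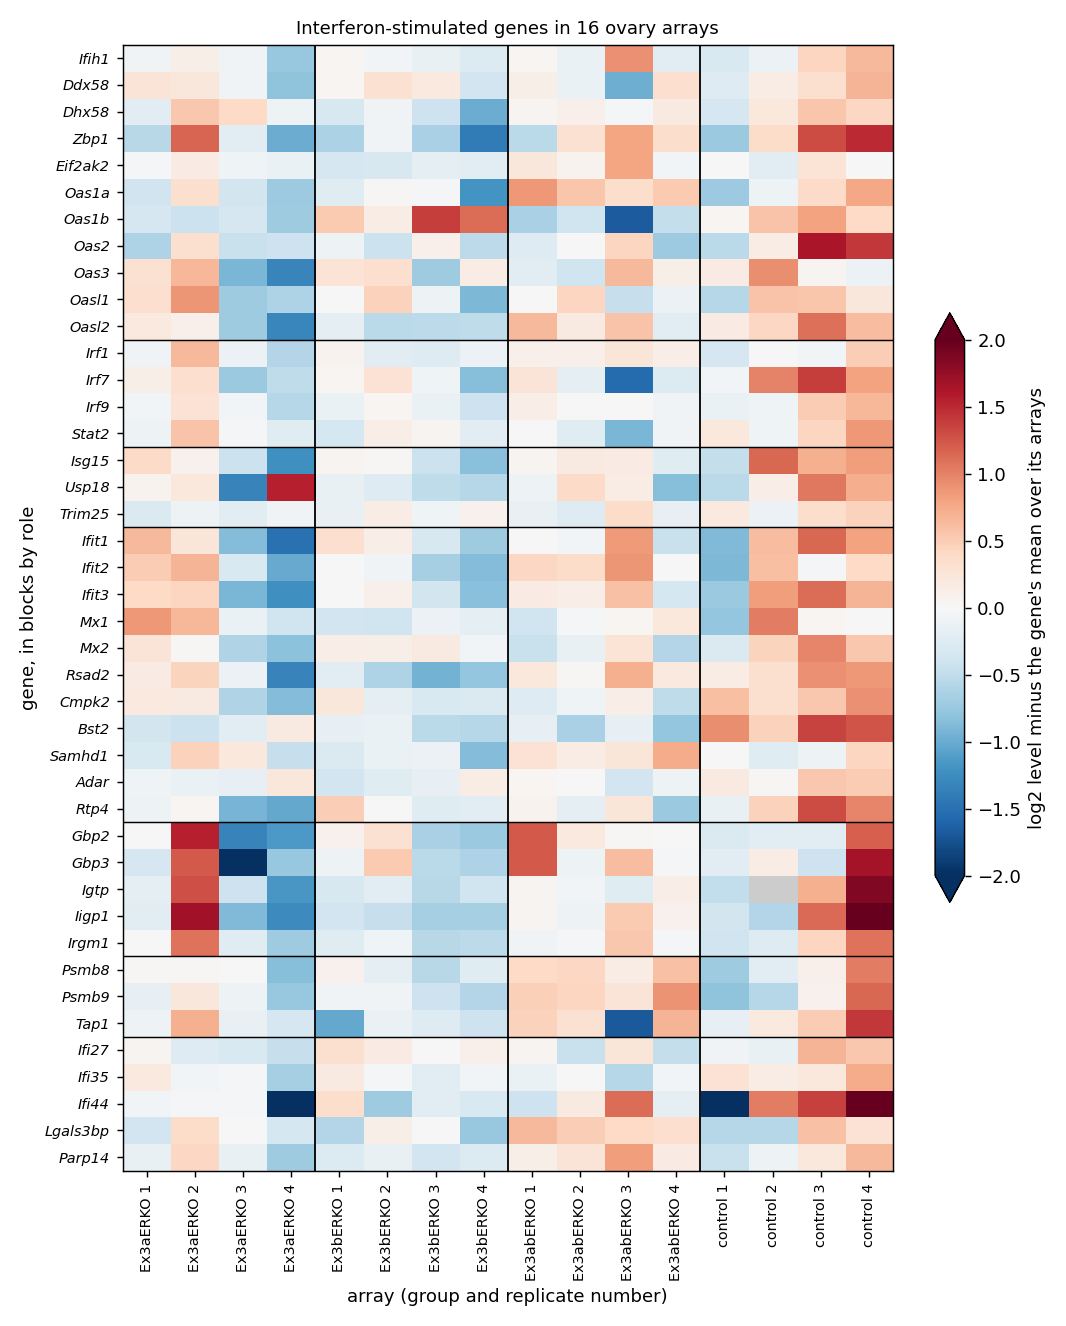
Log2 level of each of the 42 genes (rows, in blocks by role) in each of the 16 arrays (columns, by group), minus the gene's mean over its arrays; red is above and blue below that mean, grey is a value left out. Control 4 is above its gene mean for nearly all genes and Ex3aERKO 3 and 4 below for most, while Bst2 is red in the 4 control arrays alone, apart from a faint value in Ex3aERKO 4.

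The members varied together from array to array inside a group. The mean deviation of the 42 genes from their own means was -0.00, 0.40, -0.40 and -0.69 in Ex3aERKO 1 to 4, and -0.09, -0.06, -0.26 and -0.45 in Ex3bERKO. It was 0.11, 0.04, 0.13 and -0.05 in Ex3abERKO, and -0.29, 0.21, 0.60 and 0.82 in control. Control 1 was therefore lower than every Ex3abERKO array, and Ex3aERKO 2 was higher than control 2.

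The spread between arrays was large in some groups. The median SD of a member was 0.51 in Ex3aERKO, 0.27 in Ex3bERKO, 0.36 in Ex3abERKO and 0.57 in control, against 0.34, 0.30, 0.43 and 0.28 over all features. In control 38 of 42 genes were above their group mean on array 4 and 1 of 42 on array 1, and in Ex3aERKO 39 of 42 were above it on array 2 and 4 of 42 on array 4. After taking out group means, the median correlation over 861 gene pairs was 0.46 (16 arrays sharing depth, slide and cell makeup) and 89.1% of pairs were positive. No such value is given for pairs of other genes, so what is particular to the members cannot be told from it.

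Irgm1 (0.94), Irf9 (0.91) and Parp14 (0.90) followed the median of the other members most closely within groups, and 29 of 42 had a correlation above 0.5 with it. Bst2 (0.15), Usp18 (0.14), Oas1b (-0.06) and Adar (-0.12) followed it least. The called genes Cmpk2 (0.70) and Irf7 (0.41) lay between. These correlations are a description over 16 arrays.

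Within slides the member median changed sign. In Ex3aERKO against control it was 0.74 on slide 1, -1.09 on slide 2, -0.14 on slide 3 and -1.13 on slide 4. In Ex3bERKO it was 0.26, -0.36 and -0.68 on slides 1, 3 and 4, and in Ex3abERKO 0.56, -0.69 and -0.58 on slides 1, 2 and 4. Slide 1 holds control 1, the control array lowest in these genes.

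**Figure D4:**
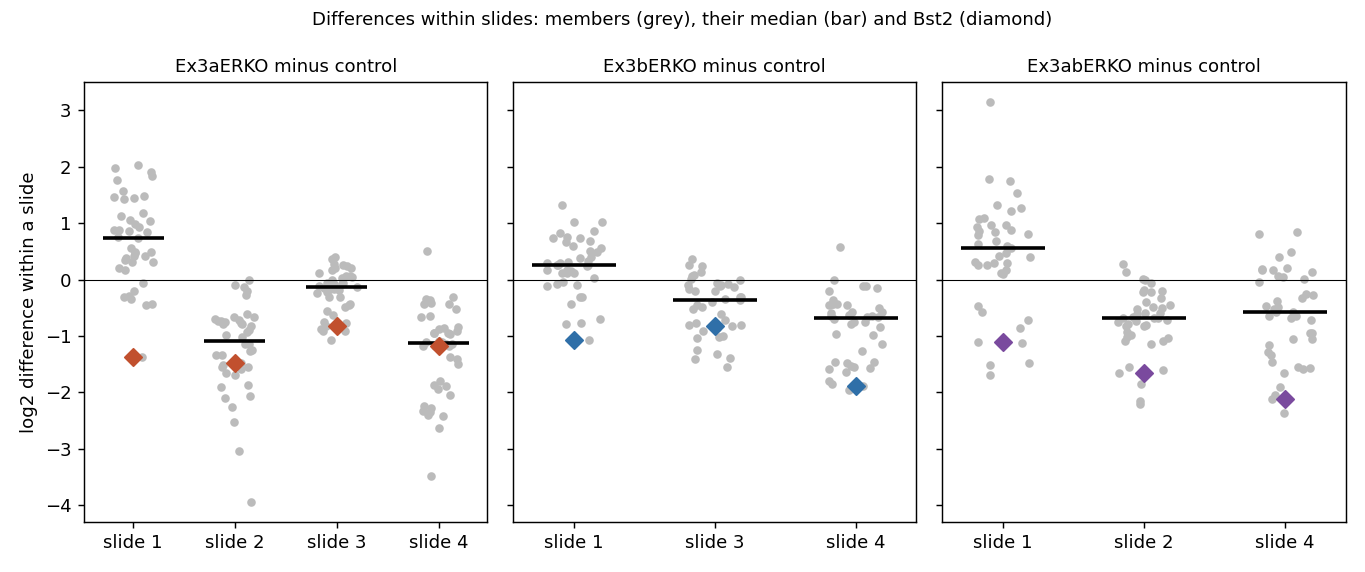
Log2 difference from control within each slide (vertical axis) for the 42 genes (grey points), their median (bar) and Bst2 (diamond), for Ex3aERKO, Ex3bERKO and Ex3abERKO. The median is above 0 on slide 1 and below 0 on the other slides, and Bst2 is below 0 on every slide.

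Between the knockouts few members differed. No member was called in Ex3abERKO against Ex3aERKO by limma, where 7.78% of all features were called (4.43% higher and 3.35% lower). At an unadjusted p under 0.05, 2 members were higher (4.76%) and none lower, against 11.5% and 10.6% of all features. In Ex3abERKO against Ex3bERKO only Oas1b was called, where 16.7% of all features were called, 8.43% lower and 8.27% higher, and 9 members were higher and 1 lower at an unadjusted p under 0.05 (21.4% and 2.38%, against 13.2% and 17.2% of all features). Eif2ak2 (0.52 ± 0.17, adjusted p = 0.0554) and Samhd1 (0.71 ± 0.24, adjusted p = 0.0579) were closest to the threshold there. Ex3aERKO against Ex3bERKO also had Oas1b alone, with 2.36% of all features called, 1.71% lower and 0.658% higher.

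Other genes of the pathway came from lists of the same origin, and their counts in Ex3abERKO against control stand beside 10.7% of all features called higher and 11.7% lower there. These shares were 3.87% and 4.2% in Ex3aERKO, and 0.403% and 0.67% in Ex3bERKO. Of 11 interferon ligands and receptors measured, 3 were higher in Ex3abERKO against control and none lower. These were Ifngr1 (1.03 ± 0.20, adjusted p = 0.00239), Ifngr2 (0.60 ± 0.19, adjusted p = 0.0378) and Ifnlr1, the receptor chain for interferon λ (1.34 ± 0.32, adjusted p = 0.00844). In Ex3aERKO only Ifnlr1 was called (1.14 ± 0.32, adjusted p = 0.0436), and in Ex3bERKO none. The type I receptor chains Ifnar1 (-0.06 ± 0.14 in Ex3abERKO) and Ifnar2 (0.39 ± 0.20) were not called. Ifnb1, which encodes interferon β, was well above background on 10 of 16 arrays, averaged -6.75, -6.61, -7.04 and -6.44 in Ex3aERKO, Ex3bERKO, Ex3abERKO and control, and was not called.

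Of 17 signal transducers and regulators, 5 rose in Ex3abERKO, among them Irf8 (1.24 ± 0.34, adjusted p = 0.0166) and Irf5 (1.42 ± 0.36, adjusted p = 0.0111), factors of myeloid cells. Socs1, which blocks the kinases of the interferon receptors, averaged 0.72 in Ex3aERKO, 0.59 in Ex3bERKO, 1.04 in Ex3abERKO and 1.24 in control. It fell in Ex3aERKO (-0.52 ± 0.15, adjusted p = 0.0444), missed the threshold in Ex3bERKO (-0.64 ± 0.15, adjusted p = 0.0516) and was called in the interaction (0.97 ± 0.21, adjusted p = 0.0201).

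Of 17 genes of nucleic acid sensing, 3 rose and 3 fell in Ex3abERKO, near the background in both directions. Tlr7, an endosomal RNA receptor (1.82 ± 0.36, adjusted p = 0.00231), and Sting1, the adaptor of DNA sensing (1.25 ± 0.20, adjusted p = 0.000723), rose. Rnaseh2a, a subunit of the nuclease that removes ribonucleotides from DNA, fell in Ex3abERKO (-1.20 ± 0.25, adjusted p = 0.00335) and in Ex3aERKO (-1.18 ± 0.25, adjusted p = 0.00924). Of 45 further interferon-stimulated genes, 10 rose and none fell in Ex3abERKO, 1 rose in Ex3aERKO (Apobec3) and none was called in Ex3bERKO. Casp1 (1.51 ± 0.34, adjusted p = 0.00615), Cd274 (1.74 ± 0.50, adjusted p = 0.0223) and Apobec3 (1.5 ± 0.33, adjusted p = 0.00517) were among the 10. Of 12 further genes of MHC class I presentation, Tapbp rose in Ex3abERKO (0.87 ± 0.25, adjusted p = 0.0210).

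Immune cell markers were higher on the same arrays. Of 20 macrophage markers 18 rose in Ex3abERKO and 4 in Ex3aERKO, with none called in Ex3bERKO and none lower. Over all features 10.7%, 3.87% and 0.403% were called higher in Ex3abERKO, Ex3aERKO and Ex3bERKO against control. The summed linear level of the macrophage markers was 371 to 544 for Ex3aERKO, 284 to 487 for Ex3bERKO, 632 to 695 for Ex3abERKO and 228 to 355 for control. Of 15 T and NK cell markers 9 rose in Ex3abERKO, with summed levels of 5.95 to 9.03, 4.91 to 7.62, 11.0 to 22.9 and 5.72 to 9.75 in the same groups. B and plasma cell markers summed to 6.08 to 12.4, 4.58 to 12.2, 22.4 to 77.7 and 6.17 to 11.2. The part of these cells in the levels of the interferon genes was not tested.

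**Figure D5:**
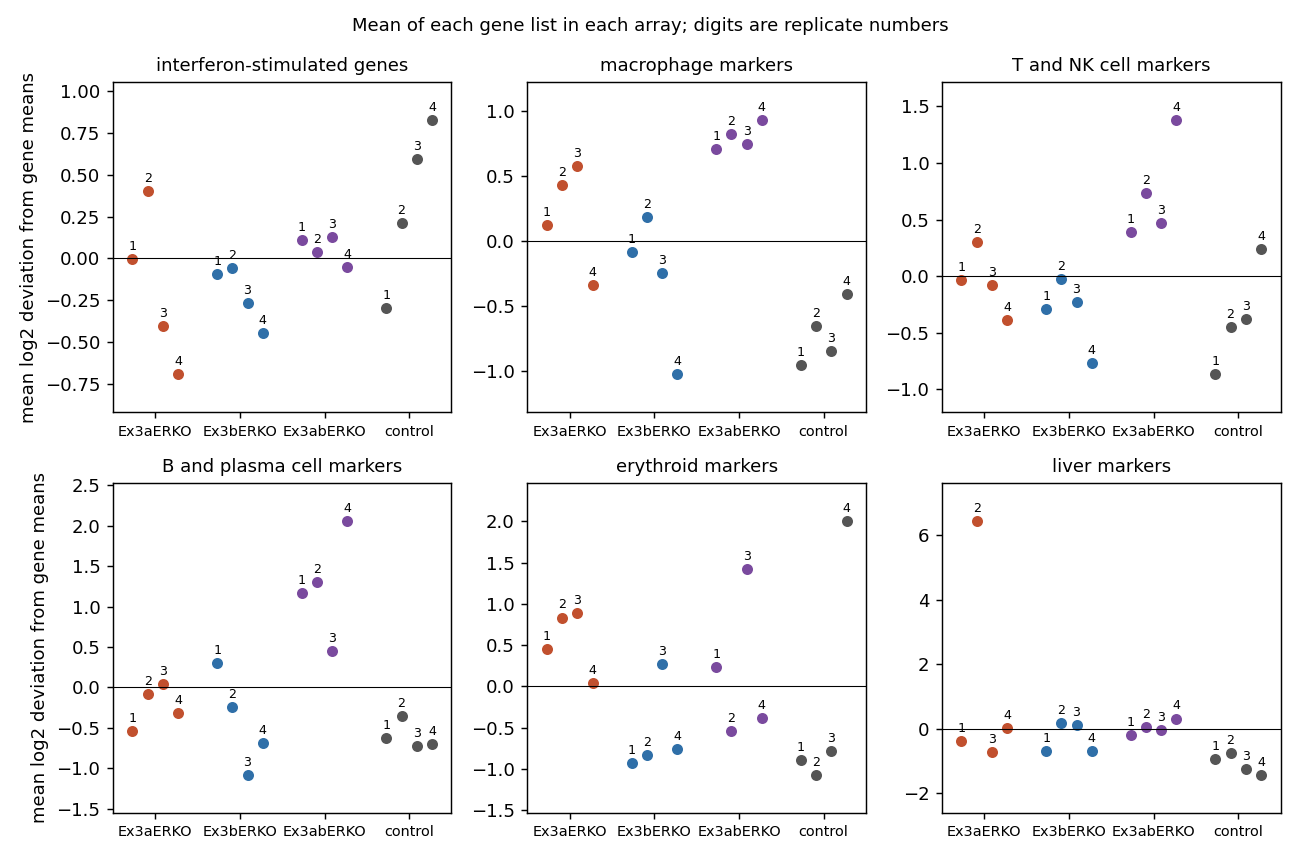
Mean log2 deviation of each gene list from its genes' means (vertical axis) in each array, by group, with replicate numbers above the points. Macrophage and B cell markers are highest in the Ex3abERKO arrays, whereas the interferon-stimulated genes are highest in control 4 and control 3 and the Ex3abERKO arrays lie between -0.05 and 0.13.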

How the data were processed

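Each array's spot intensity was the processed signal of Agilent Feature Extraction, background-subtracted by the authors' software per the file headers. The authors' deposited series table held the same intensity for all 41174 probes (relative tolerance 1e-5), so its scale was linear and not centred. Here each array was divided by its 75th percentile over 43379 non-control spots, floored at -8.88 on the log2 scale and logged. Outlier spots were left out (54 to 106 per array) and saturated ones kept. Probes well above background on at least 4 of 16 arrays were kept (36226), and the brightest probe stood for a gene. Names came from RefSeq accessions (22951 probes), a file name shared with one (4520), a current (3228) or an older (2081) symbol, and 8394 probes had none. Ifi27 is the current symbol of the probe the files call D12Ertd647e. Likewise the files call Irf9 Isgf3g, Cmpk2 Tyki, Dhx58 D11Lgp2e and Irgm1 Irgm. Gbp3 was read by a probe the files call Gbp4, which is also the symbol of a gene on another list. Coordinates of probes are mm7, counted from 1. Exons and untranslated regions are not given.

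limma 3.58.1 (R 4.3.3) was fitted with 1 mean per group over 16 arrays and 12 residual degrees of freedom, in 6 pairwise comparisons and 1 interaction. Tests were two-sided with Benjamini-Hochberg adjustment over 24331 features, and calls required an adjusted p below 0.05. The model was tested on simulated data with independent noise for each gene and array. That simulation therefore did not cover arrays of a slide or genes that vary together. Alternatives changed the scaling, background correction, dim-probe filter, probe choice, slide or replicate block, weights and samples. Replicate numbers did not pair samples (median correlation of same-numbered deviations -0.07), and arrays of a slide did deviate together (0.28). The number of arrays limits the precision.

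Named genes were all members, with values per array for the called ones with the 4 smallest adjusted p-values in a comparison and for the first of each role, and genes of other lists that were called or encode an interferon, a receptor or a defining marker. Members and lists were chosen with earlier results of these data known. Results of some genes on the lists are not reported here.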

Additional observations from a re-analysis of the deposited data

Results flagged for a closer look

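In 8 of the 167 groups of 4 values examined, 1 array stood far from the other 3 (by Dixon's criterion on its gap to the others), where chance gives about 1 in 20. Oasl2 was 0.90 in Ex3bERKO 1, above 0.56 to 0.60 on the other 3. Adar was -0.11 in Ex3aERKO 4, above -0.49 to -0.43. Psmb8 was 2.52 in the same array, below 3.35 to 3.39, and Ifi44 was -3.28 there, below -1.21 to -1.20. Gbp2 was 2.92 in Ex3abERKO 1, above 1.69 to 1.87, and 2.88 in control 4, above 1.40 to 1.48. Irgm1 was 2.03 in Ex3abERKO 3, above 1.43 to 1.47, and Tap1 was -2.56 there, below -0.57 to -0.19. For Oasl2 the interaction of the losses of ERα and ERβ passed the test (1.74 ± 0.44, limma adjusted p = 0.0447), but this call was lost in 21 of 30 alternatives, slide as a fixed block and the replicate block among them (adjusted p = 0.0755 and 0.0565), and held in 3 of 16 fits that left out 1 array.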

How the results depend on the processing

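Counts of called members moved under some settings. In Ex3aERKO against control the count of 2 became 1 with median scaling, 1 with the mean over probes, 1 with the replicate block, 5 with slide as a random block, 4 with trend and robust settings and 9 with array weights. In Ex3bERKO against control the count of 1 became 0 with only the groups compared and 3 with array weights. In Ex3abERKO against control the count of 4 became 6 with slide as a random block and 10 with array weights. It became 3 with median scaling, normexp, the replicate block or only the groups compared. In Ex3abERKO against Ex3bERKO the count of 1 became 0 with normexp and 3 with probes well above background on all 16 arrays, with only the groups compared, with trend and robust settings and without control 3 and 4. In Ex3aERKO against Ex3bERKO the count of 1 became 0 with normexp, no dim-probe filter, the replicate block and only the groups compared. The interaction count of 1 became 0 with quantile or median scaling, normexp, no dim-probe filter, slide as a fixed block or the replicate block, 2 with the filter on all 16 arrays, and 3 with trend and robust settings or array weights. Without control 3 and 4, and without the 3 arrays high in liver, oviduct or erythroid markers, both chosen after seeing the data, the count was 0 in Ex3aERKO and in Ex3bERKO against control, in Ex3aERKO against Ex3bERKO and in the interaction. Under both, the count in Ex3abERKO against control was 3, with Psmb9 called higher. Leaving out 1 array gave 1 to 4, 1 to 2 and 2 to 6 called members in Ex3aERKO, Ex3bERKO and Ex3abERKO against control, 0 to 0 in Ex3abERKO against Ex3aERKO, 1 to 3 in Ex3abERKO against Ex3bERKO, 0 to 1 in Ex3aERKO against Ex3bERKO and 0 to 2 in the interaction. The causes were not tested.

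No called difference of a member changed sign in any alternative. The member median in Ex3abERKO against control did, from -0.31 to a positive value without control 3 and 4, the controls highest in these genes. Psmb9, not called in the main fit, was called higher there, and also without control 4 alone. Bst2 passed in 29, 28 and 31 of 31 alternatives against control in Ex3aERKO, Ex3bERKO and Ex3abERKO, and Oas1b in 30 of 31 in Ex3abERKO. Cmpk2 passed in 14 of 31 in Ex3aERKO and 20 of 31 in Ex3abERKO, Irf7 in 18 of 31, Oas1b in 13 of 31 for Ex3aERKO against Ex3bERKO and Oasl2 in 9 of 30 for the interaction. Over all features, calls ran from 470 to 5170 in Ex3aERKO (1964 as reported), 49 to 803 in Ex3bERKO (261) and 2631 to 8531 in Ex3abERKO (5445) against control. Normexp moved the median of all features against control to -0.34, -0.27 and -0.36. Replicate numbers do not pair samples: 4 of 16 arrays correlated best with their own number.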
